A study of Mus musculus and Bos taurus with 6 samples.

Results

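The miRNA of the imprinted Dlk1-Dio3 domain were followed through 6 small RNA libraries of lactating mammary gland. Members were chosen by name alone: every line with the prefix mmu- or bta- whose number belongs to a list of 47 hairpin numbers of the domain, with any letter, copy or arm. No measured value entered the rule, although it was set with earlier results of these data known. The rule found 79 lines in the mouse list of 1750 miRNA and 52 lines in the bovine list of 1539, which makes 131 lines of 3289. Of the 47 numbers, 42 were listed in mouse, where miR-432, miR-453, miR-654, miR-656 and miR-758 had no line. The bovine lines covered 33 numbers, and 7 of the 52 carried the mouse prefix.

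Each of the 3 groups had 2 libraries. The mouse libraries held total RNA of whole mammary glands of FVB/N mice at day 12 of lactation. The AGO2 libraries held small RNA co-immunoprecipitated with Argonaute 2, the protein that carries miRNA in the RNA-induced silencing complex, from glands of the same strain and day. The bovine libraries each held a pool of mammary biopsies from 2 Holstein cows in mid-lactation on the low forage diet. No treatment was compared. The listed counts summed to 9299807 and 8391916 in mouse, 3909166 and 5041406 in AGO2, and 9402483 and 10613807 in bovine. Values are given as RPM, that is, counts scaled so that this sum is the same in each library. A count of 0 allowed up to 3 counts, which was 0.323 and 0.357 RPM in mouse, 0.767 and 0.595 in AGO2, and 0.319 and 0.283 in bovine libraries 1 and 2. Such limits and all intervals cover counting error only.

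The domain is expressed according to parental origin. Dlk1, Rtl1 and Dio3 are transcribed from the paternal chromosome, whereas the long non-coding RNA Meg3, Rian and Mirg and the miRNA hairpins are transcribed from the maternal one. Some hairpins lie opposite Rtl1 and are fully complementary to its transcript, and a large group beginning with miR-379 and ending with miR-410 lies further downstream. The cluster is best known from embryo, placenta, brain and muscle. As in any miRNA, bases 2 to 8 of the mature strand, the seed, carry most of the pairing with target transcripts.

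In the mouse genome (GRCm38), RefSeq gave a position for 43 of the 45 listed hairpins, all on chromosome 12 between 109563692 and 109743795. They spanned 180.1 kb between Meg3 (109541001 to 109571726) and Dio3 (110279068 to 110281097). In the GENCODE annotation, 5 hairpins (miR-431, miR-433, miR-127, miR-434 and miR-136) lay within Rtl1 on the opposite strand, 1 (miR-770) within Meg3, 2 (miR-341 and miR-370) within Rian and 12 (miR-382 to miR-410) within Mirg. The other 23 lay in none of these genes. A gap of 113.7 kb, which holds the hairpins within Rian, separated miR-136 from miR-379, and the miR-379 to miR-410 group took up 34.7 kb. Of the 43 hairpins, 42 were on the plus strand. The exception was miR-299b, which lies opposite miR-299a. No bovine positions were used here.

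The sequences below are those of the deposited lists, written 5′ to 3′ with the seed in capitals. Of the 79 mouse lines, 75 were in the RefSeq set and 73 had the same sequence there. The first set shows some of the mouse members that are discussed below, whether or not they were called in a comparison.
mmu-miR-431-5p: tGTCTTGCaggccgtcatgca
mmu-miR-136-5p: aCTCCATTtgttttgatgatgg
mmu-miR-136-3p: aTCATCGTctcaaatgagtctt
mmu-miR-379-5p: tGGTAGACtatggaacgtagg
mmu-miR-411-5p: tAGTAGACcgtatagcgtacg
mmu-miR-376a-3p: aTCGTAGAggaaaatccacgt
mmu-miR-376b-3p: aTCATAGAggaacatccactt
mmu-miR-376c-3p: aACATAGAggaaatttcacgt
mmu-miR-300-3p: tATGCAAGggcaagctctcttc
mmu-miR-381-3p: tATACAAGggcaagctctctgt
mmu-miR-380-3p: tATGTAGTatggtccacatctt
mmu-miR-154-5p: tAGGTTATccgtgttgccttcg
mmu-miR-541-5p: aAGGGATTctgatgttggtcacact
mmu-miR-369-3p: aATAATACatggttgatcttt

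The second set shows bovine counterparts whose listed sequence differed from the mouse one. It also holds miR-376e-3p, which had no mouse line of that name but carries the seed of mouse miR-376c-3p.
bta-miR-431-5p: tGTCTTGCaggccgtcatgcagg
bta-miR-411a-5p: aTAGTAGAccgtatagcgtacg
bta-miR-376a-3p: aTCATAGAggaaaatccacgt
bta-miR-376b-3p: aTCATAGAggaaaatccatgtt
bta-miR-376e-3p: aACATAGAggaaaatccacatt
bta-miR-380-3p: tATGTAATgtggtccacgtct
bta-miR-154a-5p: tAGGTTATccgtgtagccttcg

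The members did not form 1 seed family. The 79 mouse lines held 75 different seeds and the 52 bovine lines held 50. In mouse, miR-381-3p shared its seed with miR-539-3p, miR-379-3p with miR-411-3p, miR-376b-5p with miR-376c-5p, and miR-299a-3p with miR-299b-3p. In bovine, miR-376a-3p, miR-376b-3p and miR-376d-3p shared the seed TCATAGA, which mouse miR-376b-3p also carries. The median GC content of the members was 45.5% in both species, against 47.8% for the 816 other mouse lines and 47.7% for the 512 other bovine lines that carry the prefix mmu- or bta- and a miRNA name. A first base of T, the base that Argonaute proteins favour as U, was found in 36.7% of the mouse and 34.6% of the bovine members, against 41.3% and 41.8% of those other lines.

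Some members could share reads. Within 1 base of the same start, 4 pairs of mouse and 10 pairs of bovine lines of the cluster differed by at most 2 bases, and most of the bovine pairs were miR-376 lines. Among them were miR-379-3p and miR-411-3p in the mouse lists and, under names of other species, in the bovine lists, and bovine miR-369-3p with a sheep entry of miR-154b-3p. Single values of these lines and of the miR-376 and miR-299 lines are therefore uncertain, and sums over the miR-376 family are given beside them.

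The cluster was a minor part of all miRNomes. Its members summed to 458 and 692 RPM in the mouse libraries, to 828 and 1592 RPM in the AGO2 libraries and to 2212 and 1799 RPM in the bovine libraries. The means were 575 ± 165, 1210.0 ± 539.7 and 2005 ± 292 RPM (SD, n = 2), or between 0.0458% and 0.221% of the counts of a library. Both bovine libraries lay above all others although fewer lines were listed, and both AGO2 libraries lay above both mouse libraries. The AGO2 sums rested on few strands. The 3 most abundant members held 60.7% and 70.3% of the member counts in AGO2, 37.4% and 46.8% in mouse and 43.0% and 46.5% in bovine. In AGO2 these were miR-136-3p, miR-411-5p and miR-376a-3p. The median member was at 0 and 1.79 RPM in AGO2 and at 1.18 and 1.07 RPM in mouse. Sums over chosen members were not tested.

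Most members were detected and few were abundant. Counts were found for 72 and 64 of the 79 members in the mouse libraries, for 30 and 61 in the AGO2 libraries, and for 46 and 47 of the 52 in the bovine libraries. AGO2 library 1, which had the smallest sum of counts, stood apart with 49 members at 0, and detection over all 895 mouse lines with the prefix mmu- and a miRNA name was also lower there, at 42.7% against 68.6% in AGO2 library 2. A mean of at least 10 RPM was reached by 15 members in mouse, 11 in AGO2 and 25 in bovine. A mean of at least 100 RPM was reached by 1, 3 and 6 members. In mouse total RNA, 36 members were below a mean of 1 RPM and 28 between 1 and 10 RPM. The lines at 0 in both mouse libraries were miR-134-3p, miR-539-3p, miR-544-3p and miR-667-3p.

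**Figure D1:**
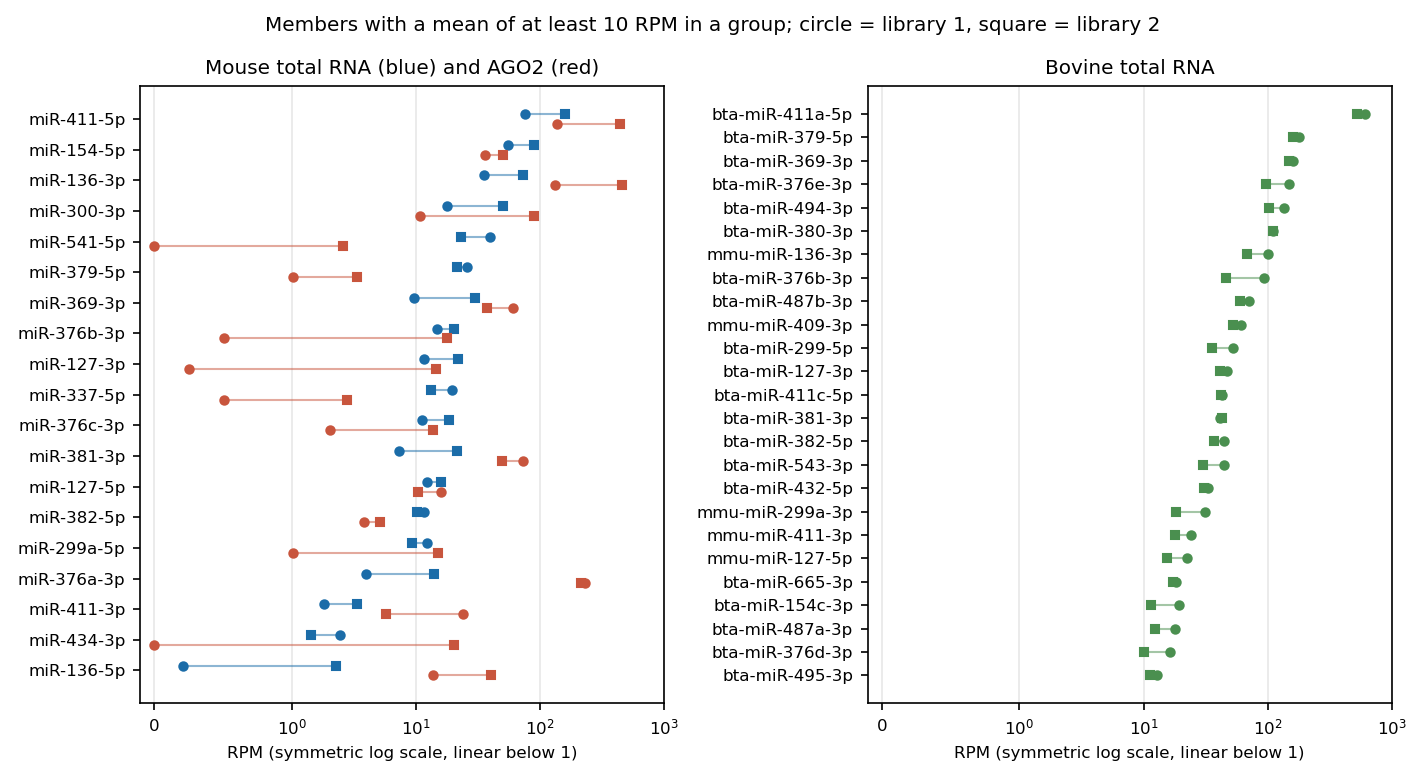
Level in RPM (horizontal axis, symmetric log scale) of each member with a mean of at least 10 RPM in a group, with 1 point per library (circle, library 1; square, library 2) and a line joining both. Mouse total RNA is blue, AGO2 red and bovine green. miR-411-5p is the most abundant member in mouse and in bovine, and the AGO2 libraries lie farthest apart.

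The first members of the domain, on the Rtl1 side, were led by miR-136 and miR-127. miR-136-3p had 35.4 and 73.3 RPM in mouse, 133.5 and 458 RPM in AGO2, and 100.1 and 68.9 RPM in bovine. miR-127-3p had 11.7 and 21.8 RPM in mouse, 0.256 and 14.5 RPM in AGO2, and 46.8 and 41.3 RPM in bovine. Both AGO2 libraries exceeded both mouse libraries for miR-136-3p, while for miR-127-3p they spread over a wide range. miR-127-5p, from the other arm, had a narrower range, with 12.4 and 15.8 RPM in mouse, 16.1 and 10.5 in AGO2 and 22.5 and 15.5 in bovine. miR-337-5p had 19.5 and 13.2 RPM in mouse and 0.512 and 2.78 RPM in AGO2. In bovine, miR-432-5p, a number with no mouse line, had 33.0 and 30.9 RPM. miR-434-3p, a number with no bovine line, was at 0 in AGO2 library 1 and at 20.2 RPM in library 2, against 2.47 and 1.43 RPM in mouse. On this side of the domain lay 21.8% ± 0.61 of the member counts in mouse, 29.4% ± 8.85 in AGO2 and 10.6% ± 0.35 in bovine (SD, n = 2).

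The hairpins within Rian were close to the limit of detection. miR-341 and miR-370 together summed to a mean of 0.972 ± 0.31 RPM in mouse and 1.02 ± 1.08 RPM in AGO2, and miR-370 to 2.95 ± 1.24 RPM in bovine (SD, n = 2).

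The miR-379 to miR-410 group held 78.0% ± 0.61 of the member counts in mouse, 70.5% ± 8.90 in AGO2 and 89.3% ± 0.39 in bovine (SD, n = 2). miR-411-5p was its most abundant member in total RNA of both species. It had 76.5 and 161 RPM in mouse, 138 and 445 RPM in AGO2, and 614 and 528 RPM in bovine. Its mean rank was 159 of all 1750 lines in mouse, 116 in AGO2, and 106 of 1539 in bovine. In mouse it was followed by miR-154-5p at 55.1 and 90.1 RPM, and in bovine by miR-379-5p at 178 and 159.5 RPM and miR-369-3p at 159 and 149 RPM. In mouse, miR-411-5p was above miR-154-5p in both libraries, but the ranges of both members overlapped. Further down the mouse order, miR-300-3p had 17.7 and 50.2 RPM, miR-541-5p 40.0 and 23.1 RPM, miR-379-5p 25.7 and 21.3 RPM and miR-369-3p 9.68 and 30.1 RPM, and all of these overlapped.

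**Figure D2:**
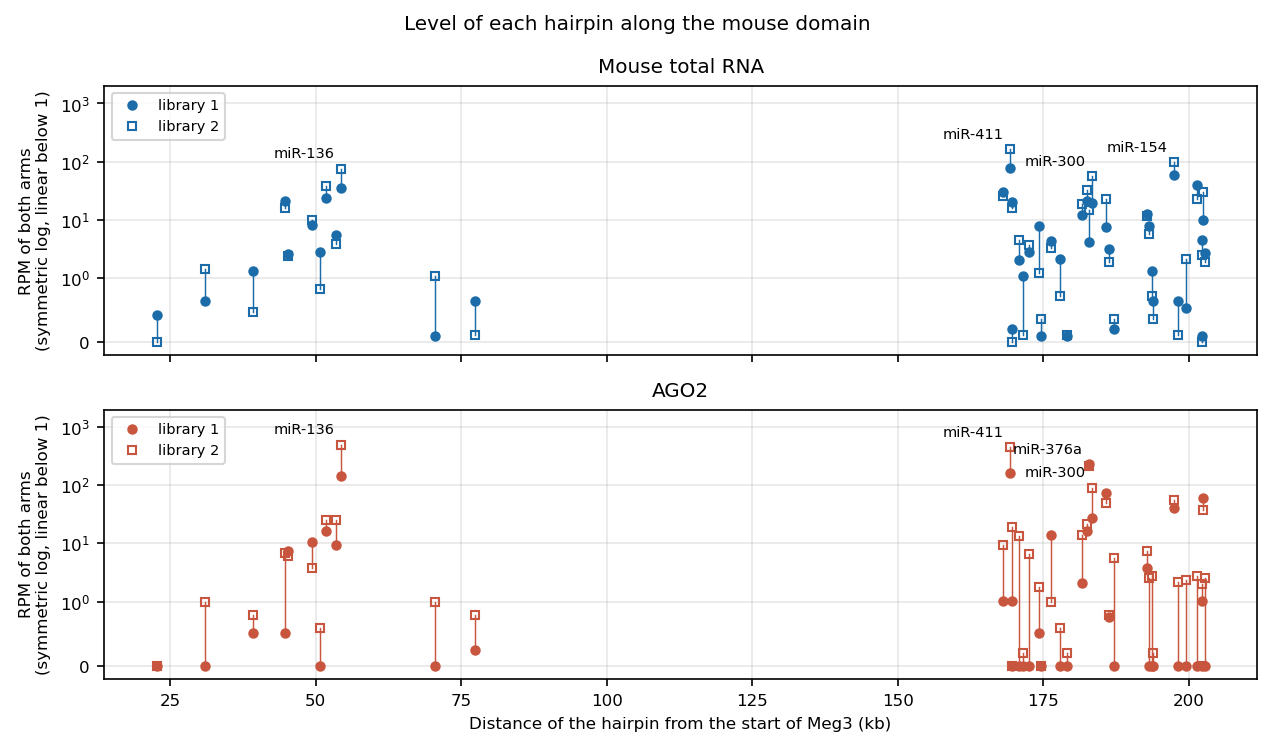
Level of each mouse hairpin, summed over its listed arms (vertical axis, RPM on a symmetric log scale), against the distance of the hairpin from the start of Meg3 (kb), for mouse total RNA (upper) and AGO2 (lower), with 1 point per library. The 43 hairpins fall into the Rtl1 side, a pair within Rian near the detection limit and the miR-379 to miR-410 group, and the highest levels are single hairpins in both outer groups.

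The spread between libraries was widest in AGO2. Among members with a mean of at least 10 RPM, the libraries differed by more than 2-fold for 5 of 15 in mouse (33.3%), 6 of 11 in AGO2 (54.5%) and 1 of 25 in bovine (4.0%). The same was true of 25.9%, 44.3% and 1.75% of the other lines at that level. No test was made of these shares. In bovine, library 1 was the higher one for 23 of the 25 members. The same share was not computed for the other lines, so it cannot be called particular to the members.

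The comparison of AGO2 with mouse total RNA asks which miRNA are more or less abundant among RNA held by AGO2 than in the gland as a whole. Of the members tested, 3 mature strands were higher in AGO2 than in total RNA and 0 were lower. These were miR-376a-3p, miR-136-3p and miR-136-5p. The quasi-likelihood test of edgeR, adjusted over all miRNA after Benjamini and Hochberg, was run on 299 lines. Lines were kept if any of the 4 libraries exceeded a fixed count, equal to 18.8 and 20.9 RPM in the mouse and 44.8 and 34.7 RPM in the AGO2 libraries. Of the 79 members, 12 passed this filter, and 6 of them did so through both groups. Over all 299 lines, 27.8% were called in either direction, 15.4% higher and 12.4% lower in AGO2. For the members, 3 of 12 were called higher and 0 lower, which is 25.0% in all and close to the background. The count of members at an unadjusted p under 0.05 was 5. DESeq2 called 4 higher and 1 lower, the latter being miR-541-5p, where 69 and 48 of all 299 lines were called. With edgeR, the median log2 fold change was 1.08 over the 12 members and -0.12 over all 299 lines. Of the 12, 7 had a positive value. The members' median was -0.31 without AGO2 library 2. With lower filters it was -0.08 over 49 members and -0.70 over 79, where the medians of all lines were 4.62 and 2.82. Of the 299 lines, 22 were predicted miRNA, and 12 of the 46 called higher and 3 of the 37 called lower were among them. Libraries of a group came from separate mice, but the labels do not say whether AGO2 and total RNA were taken from the same ones.

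miR-376a-3p had 3.98 and 13.9 RPM in mouse total RNA and 231 and 215 RPM in AGO2. The groups lay far apart, and both AGO2 libraries agreed closely. The log2 fold change was 4.77 ± 0.81 (SE, n = 2 per group; edgeR adjusted p = 0.000366). It passed the filter through AGO2 alone. Its neighbours of the miR-376 family behaved otherwise: miR-376b-3p had 14.7 and 20.4 RPM in mouse and 0.512 and 17.9 RPM in AGO2, and miR-376c-3p had 11.3 and 18.7 RPM in mouse and 2.05 and 13.7 RPM in AGO2. These 2 strands did not pass the filter. Summed over its 3 mouse lines, the 3p arm of the family had 30.0 and 53.0 RPM in mouse and 234 and 247 RPM in AGO2. Mouse miR-376a-3p is the line with G at the fourth base, within the seed, where miR-376b-3p and miR-376c-3p have A in the sequences above.

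Both arms of miR-136, whose hairpin lies opposite Rtl1, were higher in AGO2. miR-136-3p rose by a log2 fold change of 2.61 ± 0.75 (SE, n = 2 per group; edgeR adjusted p = 0.0116). miR-136-5p had 0.215 and 2.26 RPM in mouse and 13.8 and 40.7 RPM in AGO2, with a log2 fold change of 4.60 ± 1.70 (SE, n = 2 per group; edgeR adjusted p = 0.0495). The groups did not overlap for either strand. The mouse level of miR-136-5p rests on 2 and 19 counts, it passed the filter through AGO2 alone, and its call was lost in 5 of 9 alternative settings, among them those without either mouse library (adjusted p up to 0.493). The call of miR-136-3p was lost without mouse library 1 or without AGO2 library 2 (adjusted p up to 0.258).

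The other 9 members tested did not reach an adjusted p under 0.05. miR-381-3p had 7.31 and 21.7 RPM in mouse and 73.2 and 49.2 RPM in AGO2 (log2 fold change 2.20 ± 0.97, SE; edgeR adjusted p = 0.0867). miR-369-3p had 60.6 and 37.3 RPM in AGO2, above both mouse libraries (log2 fold change 1.41 ± 0.99, SE; edgeR adjusted p = 0.277). For miR-411-5p the groups overlapped (log2 fold change 1.47 ± 0.71, SE; edgeR adjusted p = 0.118). At the other end, miR-541-5p was at 0 and 2.58 RPM in AGO2 against 40.0 and 23.1 RPM in mouse (log2 fold change -4.34 ± 1.71, SE; edgeR adjusted p = 0.0624). miR-379-5p had 1.02 and 3.37 RPM in AGO2 and, like miR-337-5p, lay below both mouse libraries without passing the test. miR-154-5p, the second member in mouse total RNA, had 36.1 and 50.8 RPM in AGO2 (log2 fold change -0.59 ± 0.77, SE; edgeR adjusted p = 0.553). The libraries of both groups did not overlap for 9 of the 12 members, 5 higher and 4 lower in AGO2, where 31.1% and 42.1% of all 299 lines did not overlap in these directions. The members below the mouse libraries passed the filter through the mouse libraries alone, with the exception of miR-154-5p.

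**Figure D3:**
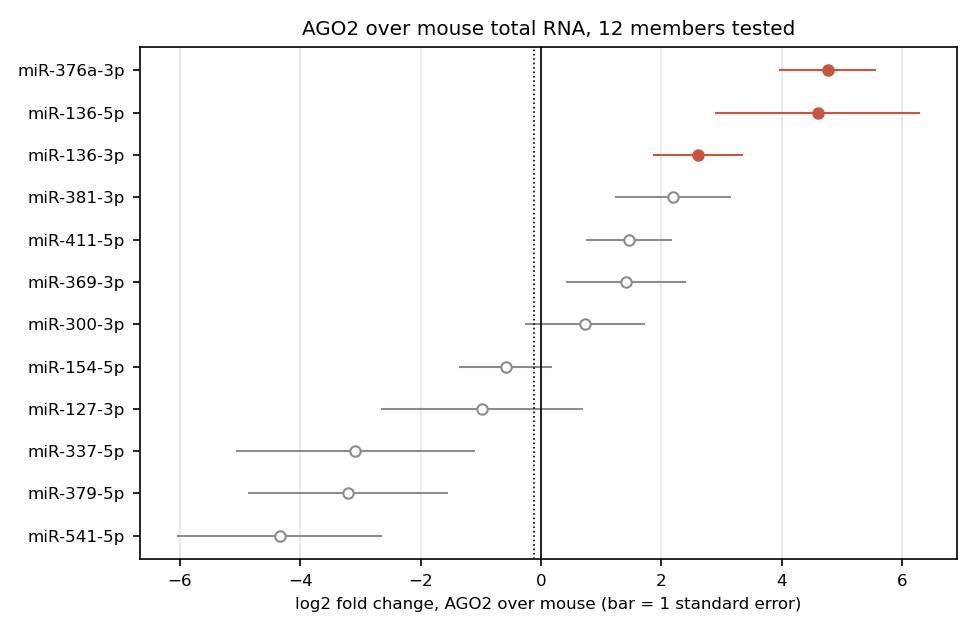
Log2 fold change of AGO2 over mouse total RNA (horizontal axis) for the 12 members tested, with bars of 1 standard error. Filled red points have an adjusted p under 0.05, open grey points do not, and the dotted line marks the median of all 299 lines. miR-376a-3p, miR-136-5p and miR-136-3p are the called members, all to the right.

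The AGO2 libraries differed from each other for many members. Without AGO2 library 1, 5 members were called higher and 1 lower, where 65 and 25 of all 299 lines were. Without AGO2 library 2, 3 members were called higher and 4 lower, where 38 and 41 of all lines were. Marker miRNA moved between the groups too, in both directions. The 5 epithelial markers (the miR-200 family and miR-205-5p) summed to 155444 and 181734 RPM in mouse and 334535 and 365137 RPM in AGO2, and the 6 mesenchymal and contractile markers (miR-143, miR-145, miR-199 and miR-214 strands) to 54524 and 71361 RPM in mouse and 37560 and 35521 RPM in AGO2. Of the epithelial markers, miR-200a-3p and miR-141-3p lay above both mouse libraries in AGO2, and miR-200b-3p and miR-200c-3p lay below them. Of the mesenchymal and contractile markers, miR-199a-5p and miR-199b-5p lay above them and miR-143-3p, the most abundant, lay below. All markers of both lists had counts in all 4 libraries. Their part in the result was not tested. Both groups came from whole glands of the same strain and day. In bulk tissue the cells a strand came from cannot be told.

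Arm use was read from hairpins with both arms listed, as the share of counts on the 3p arm with its 95% Clopper-Pearson interval. Both mouse libraries had at least 20 counts on 21 of 34 such hairpins, and the 3p arm held most counts in both libraries for 9 and the 5p arm for 11. The remaining hairpin was miR-127, at 48.7% (41.9 to 55.4) and 57.9% (52.3 to 63.4). For miR-136, the 5p arm was scarce in mouse, with a 3p share of 99.4% (97.8 to 99.9) and 97.0% (95.4 to 98.2), and less scarce in AGO2, with 90.6% (87.9 to 92.9) and 91.8% (90.7 to 92.9). These intervals did not overlap between mouse and AGO2 libraries. miR-376a was almost wholly 3p, with at least 95.1% in each of the 4 libraries.

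The AGO2 libraries differed in the major arm of some hairpins. Only 10 hairpins had at least 20 counts in both, and for 4 of these the major arm differed between the libraries. With at least 100 counts in both, this held for 1 of 7 hairpins. Arm use of single hairpins outside the cluster was not read, so it is not known whether this is particular to the members. miR-127 had a 3p share of 1.56% (0.04 to 8.40) in AGO2 library 1 and of 57.9% (48.8 to 66.7) in library 2. miR-376b had 3.17% (0.39 to 11) and 84.1% (75.8 to 90.5), and miR-434 had 0% (up to 9.49) and 78.5% (70.4 to 85.2). miR-300 had 39.3% (29.9 to 49.2) and 97.8% (96.0 to 99.0), against 92.7% and 89.2% in mouse. For each of these 4 hairpins the 3p share was lower in library 1 than in library 2. miR-411, mostly 5p in both libraries, went the other way, at 14.8% (12.1 to 17.8) in library 1 and 1.28% (0.86 to 1.83) in library 2. miR-379 and miR-337, at 12.8% and 15.96% and at 6.22% and 15.9% in mouse, had 63.8% (48.5 to 77.3) and 60.0% (42.1 to 76.1) in AGO2 library 2, and library 1 held 4 and 2 counts of these hairpins. miR-329 had 42.3% (23.4 to 63.1) and 12.9% (3.63 to 29.8) in mouse. It had 97.0% (84.2 to 99.9) in AGO2 library 2, and library 1 held 0 counts of it.

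**Figure D4:**
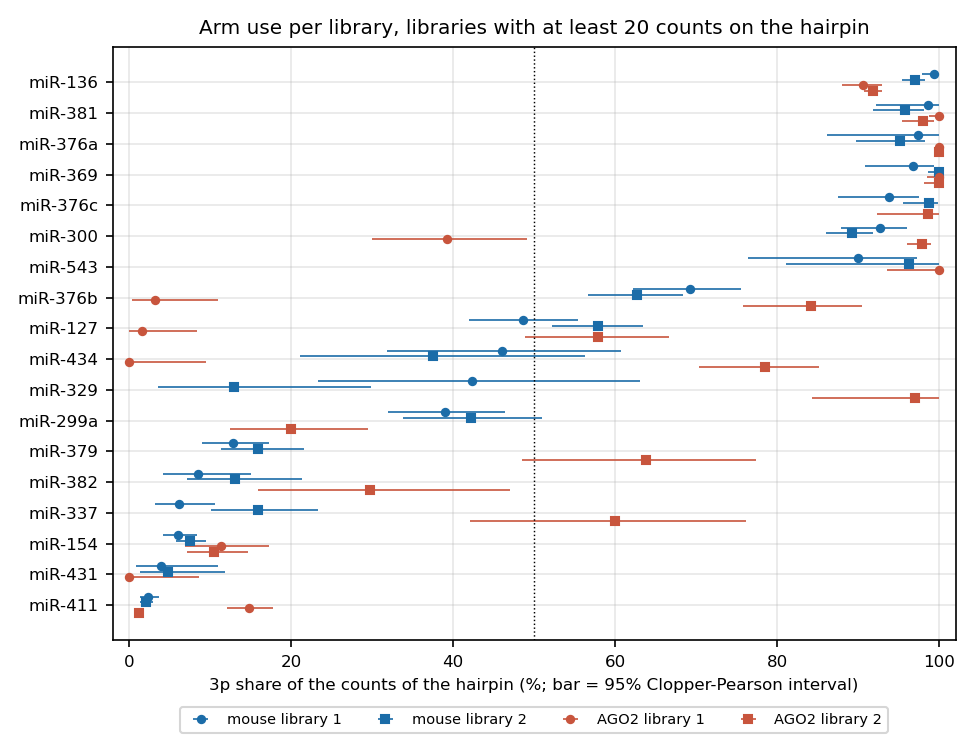
Share of the counts of a hairpin that fell on the 3p arm (horizontal axis, %), per library, with 95% Clopper-Pearson intervals as bars, for the 18 hairpins with at least 20 counts in both mouse libraries and in at least 1 AGO2 library. Mouse libraries (blue) lie close together except for miR-329, while AGO2 libraries 1 and 2 (red circles and squares) lie farthest apart for miR-300, miR-376b, miR-127 and miR-434.

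The major arm of miR-136, miR-369 and miR-411 was the same in bovine as in mouse total RNA. miR-411a had a 3p share of 3.82% (3.35 to 4.33) and 3.28% (2.84 to 3.77), against 2.34% and 2.03% for miR-411 in mouse. miR-136 had 99.5% in both bovine libraries, and miR-299 had 37.2% and 34.0% against 39.0% and 42.2% for miR-299a in mouse. miR-127 was at 67.5% (63.7 to 71.1) and 72.6% (68.9 to 76.2), above both mouse libraries.

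The comparison of species asks which miRNA of the lactating gland are at like or unlike levels in cow and mouse. Of the 31 matched members that could be tested, 17 were more abundant in bovine total RNA, among them miR-493-3p, miR-380-3p, miR-409-3p, miR-494-3p and miR-487b-3p, and 4 were less abundant: miR-431-5p, miR-154-5p, miR-134-5p and miR-376a-3p. Lines were matched by name after the prefix, and then by lines of the study's own table that share number and arm, which gave 300 pairs, among them 39 members. Of these, 264 pairs and 31 members had at least 10 counts in at least 2 of the 4 libraries and were tested with the same edgeR procedure. Over all 264 pairs, 62.1% were called in either direction, 28.8% higher and 33.3% lower in bovine. The members' calls came to 54.8% higher and 12.9% lower. The median log2 fold change was 1.61 over the members and -0.14 over all pairs. Of the 31 members, 8 passed the filter through the bovine libraries alone and 1 through the mouse libraries alone. Of the 17 called higher, 4 were among those 8, and of the 4 called lower, miR-431-5p had passed through mouse alone. The libraries of both species did not overlap for 25 members that were higher and 3 that were lower in bovine, where 50.8% and 33.0% of all pairs did not overlap in these directions. Without bovine library 1 or without bovine library 2, the members called fell to 8 higher and 2 lower, while the calls over all pairs fell from 76 and 88 to 40 and 45 and to 30 and 42. These 8 were miR-493-3p, miR-380-3p, miR-409-3p, miR-494-3p, miR-487b-3p, miR-543-3p, miR-379-5p and miR-369-3p, and the 2 were miR-431-5p and miR-154-5p.

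Scaling moved all values. The median of all pairs was -0.14 with TMM, 0.12 with the size factors of DESeq2 and 0.50 with the library sums alone. Over all pairs, 76 were called higher and 88 lower with TMM, 79 and 73 with those size factors and 103 and 68 with library sums. The members' median moved with that of all pairs, at 1.61, 1.85 and 2.27. In the same order, 17, 18 and 22 members were called higher and 4, 3 and 3 lower. Species, parity, the sampling of the gland, RNA kit and the pooling of cows changed together and cannot be told apart. By the paper's account the mice were primiparous and the cows multiparous. This comparison and that with AGO2 used the same mouse libraries.

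On the Rtl1 side, 7 members were tested, with 2 called higher and 1 lower. miR-493-3p had 2 and 0 counts in mouse and 93 and 66 in bovine, and passed the filter through the bovine libraries alone. Summed over libraries and scaled to their sums, it was 70.3 times as abundant in bovine (95% interval from counting 19.1 to 585). The fitted log2 fold change was 5.39 ± 1.00 (SE; edgeR adjusted p = 0.000836) and ran from 4.54 to 9.13 with single libraries left out. miR-665-3p had 2.58 and 2.38 RPM in mouse and 18.3 and 17.4 RPM in bovine (log2 fold change 2.20 ± 0.54, SE, n = 2 per group; edgeR adjusted p = 0.00432). miR-431-5p went the other way, with 74 and 79 counts in mouse and 1 and 2 in bovine, and passed the filter through the mouse libraries alone. By the same reckoning it was 57.7 times as abundant in mouse (95% interval from counting 19.4 to 283), and the fitted log2 fold change was -6.35 ± 0.81 (SE; edgeR adjusted p = 6.53e-05). The bovine sequence of miR-431-5p is listed 2 bases longer at its 3′ end and with the same seed. Both members called higher were also pairs with unlike listed sequences. miR-493-3p is listed with 23 bases in mouse and 22 in bovine, with the same seed. miR-665-3p differs by 3 substitutions, and its seed is not the same in both species. miR-136-3p, identical in both species, had overlapping groups (log2 fold change -0.02 ± 0.47, SE; edgeR adjusted p = 0.970). miR-127-3p, also identical, was higher in both bovine libraries but did not pass the test (log2 fold change 0.75 ± 0.47, SE; edgeR adjusted p = 0.178).

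Of the hairpins within Rian, miR-370-3p was tested. It had 0.538 and 0.119 RPM in mouse and 3.83 and 2.07 RPM in bovine (log2 fold change 2.44 ± 0.96, SE; edgeR adjusted p = 0.0442). Its mouse level rests on 5 and 1 counts, and the call was lost without mouse library 2 or either bovine library.

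In the miR-379 to miR-410 group, 23 members were tested, with 14 called higher and 3 lower. miR-411-5p, the leading member of both species, had a log2 fold change of 1.61 ± 0.47 (SE, n = 2 per group; edgeR adjusted p = 0.0117). Among the members called higher, the largest changes belonged to members that were scarce in mouse. The mouse level is itself part of the fold change, so this order is no separate result. miR-495-3p and miR-409-5p passed the filter through the bovine libraries alone. miR-409-5p, at 1.83 and 0.953 RPM in mouse, had a log2 fold change of 2.03, below the 2.20 of miR-379-5p. miR-494-3p had 7.85 and 1.19 RPM in mouse and 136 and 103 RPM in bovine (log2 fold change 4.07 ± 0.71, SE; edgeR adjusted p = 0.000596).

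miR-487b-3p had 3.12 and 1.91 RPM in mouse and 71.0 and 59.9 RPM in bovine, a log2 fold change of 4.05 ± 0.52 (SE). miR-409-3p had 2.58 and 1.55 RPM in mouse and 60.9 and 52.8 RPM in bovine, a log2 fold change of 4.13 ± 0.53 (SE). miR-380-3p had 1.72 and 4.17 RPM in mouse and 110.0 and 110.3 RPM in bovine, a log2 fold change of 4.58 ± 0.56 (SE). None of these groups overlapped, and their calls held in every alternative in which they could be fitted. miR-380-3p differs between the listed sequences by G7A, A9G and A18G, the mouse base standing first and positions being counted from the 5′ end, so that 1 difference falls in the seed. miR-379-5p, the first hairpin of the group and identical in both species, had 25.7 and 21.3 RPM in mouse and 178 and 159.5 RPM in bovine (log2 fold change 2.20 ± 0.42, SE; edgeR adjusted p = 0.000995). miR-369-3p, at the far end, changed by a like amount, with a log2 fold change of 2.30 ± 0.55 (SE; edgeR adjusted p = 0.00394). The other members called higher were miR-543-3p, miR-495-3p, miR-411-3p, miR-409-5p, miR-299a-5p, miR-376b-3p and miR-382-5p, with log2 fold changes from 1.26 to 2.77.

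Among the members called lower in bovine, miR-154-5p stood out. It had 55.1 and 90.1 RPM in mouse and 2.77 and 1.60 RPM in bovine, where it was matched to miR-154a-5p (log2 fold change -5.71 ± 0.57, SE, n = 2 per group; edgeR adjusted p = 1.48e-05). The listed sequences differ by T15A, outside the seed. The other bovine 5p line of that number, miR-154b-5p, has another seed and had 10.4 and 9.42 RPM. miR-134-5p, known from the dendrites of neurons, had 7.85 and 5.72 RPM in mouse and 1.91 and 2.07 RPM in bovine (log2 fold change -2.39 ± 0.61, SE; edgeR adjusted p = 0.0053).

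miR-376a-3p had 3.98 and 13.9 RPM in mouse and 5.32 and 2.83 RPM in bovine, and the groups overlapped. Its call (log2 fold change -1.80 ± 0.69, SE; edgeR adjusted p = 0.039) was lost in 8 of 10 alternatives, all other scalings among them, with an adjusted p up to 0.336. The species differ by G4A in the seed of this strand. The family went the other way, since bovine miR-376e-3p had 148 and 96.5 RPM and miR-376b-3p 92.8 and 46.3 RPM. Summed over 5 bovine lines, 1 of them a human entry, the 3p arm of the miR-376 family had 496 and 314 RPM in bovine against 30.0 and 53.0 RPM in mouse.

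Sequence identity between the species could be set beside these calls. Of the 39 matched members, 24 had identical listed sequences and 32 had the same seed. Of the 19 tested members with an identical sequence, 12 were called higher and 0 lower, with a median log2 fold change of 2.03. Of the 12 with another sequence, 5 were called higher and 4 lower, with a median of 1.47. Each of the 4 members called lower was a pair with unlike sequences. Sequences were compared for members alone, so the shares called among identical and unlike pairs in general are not known. The bearing of sequence on the calls was not tested. For miR-411-5p, miR-323-3p and miR-369-5p the bovine line starts at another base, which shifts the seed as listed, and reads of 1 strand could then be counted under another start.

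**Figure D5:**
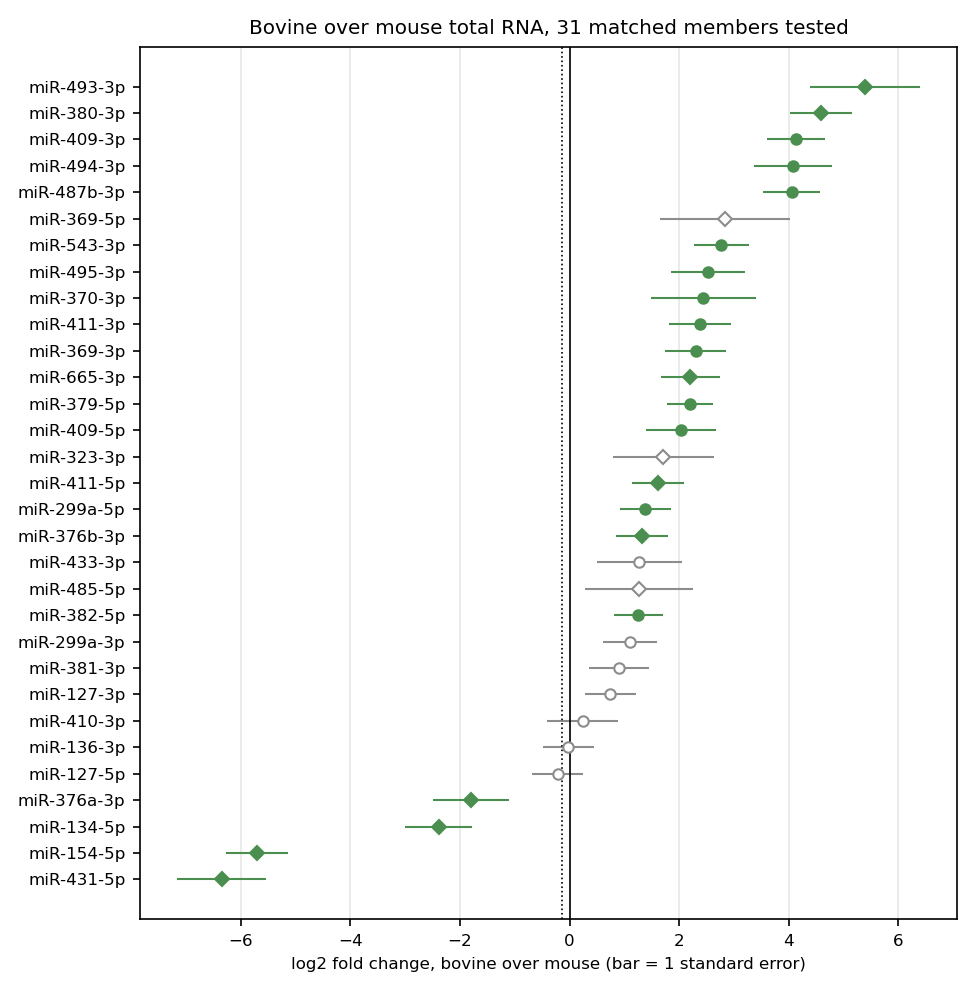
Log2 fold change of bovine over mouse total RNA (horizontal axis) for the 31 matched members tested, with bars of 1 standard error. Circles have identical listed sequences in both species and diamonds do not, filled green points have an adjusted p under 0.05, and the dotted line marks the median of all 264 pairs. Of the filled points, 17 lie to the right and 4 to the left, and these 4 are diamonds. Sequences of the other pairs were not compared.

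Marker miRNA also differed between the species. The pair of endothelial markers (both strands of miR-126) summed to 24194 and 34265 RPM in mouse and 62356 and 55972 RPM in bovine, and the 3 skeletal muscle markers to 163 and 213 RPM in mouse and 727 and 782 RPM in bovine, most of it miR-1. Epithelial markers summed to 76764 and 78565 RPM in bovine, below mouse, with 3 of the 5 below both mouse libraries and miR-200c-3p and miR-205-5p above them. The mesenchymal and contractile markers summed to 80524 and 65790 RPM, with 4 of the 6 above both mouse libraries and 0 below. The 3 red blood cell markers summed to 13343 and 6504 RPM in mouse, 32468 and 15527 RPM in AGO2 and 1709 and 1098 RPM in bovine. The 5 leukocyte markers summed to 1263 and 2123 RPM in mouse, 2351 and 2971 RPM in AGO2 and 2553 and 3285 RPM in bovine. In AGO2, miR-142-5p, miR-150-5p and miR-223-3p lay above both mouse libraries and miR-155-5p lay below them. In bovine, miR-142-5p, miR-150-5p and miR-155-5p lay above both mouse libraries, and miR-142-3p and miR-223-3p lay below them. The neural markers miR-9-5p and miR-124-3p summed to 34.3 and 97.6 RPM in mouse and 18.5 and 22.0 RPM in bovine. Every marker of the endothelial, epithelial and mesenchymal lists had counts in both libraries of both species. The part of these differences in the result was not tested. In bulk tissue, fewer cells of a type and less RNA per cell cannot be told apart.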

How the data were processed

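Small RNA was sequenced from 6 libraries. The authors kept reads of 17 to 28 nt after removal of poly-A stretches, mapped reads to GRCm38 or UMD3.1 with miRDeep2, and counted them with its quantifier on miRBase precursors and predicted precursors. What the authors deposited are unscaled read counts for each mature strand. A scaled column and the separate lists of predicted precursors were not used, but predicted miRNA in the count tables entered the AGO2 test. Members and lists were chosen with earlier results of these data known. Members named singly had a mean of at least 10 RPM in a group or were called in a comparison.

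RPM were computed over the listed counts of each library. The count test was that of edgeR 4.0.16 under R 4.3.3 (TMM, quasi-likelihood F test, Benjamini-Hochberg adjustment, threshold 0.05), and the procedure was tested on simulated data. A standard error is the size of the log2 fold change over the square root of F. DESeq2 1.42.0, other scalings, filters, matchings and each library left out were alternatives. Intervals were exact binomial ones (SciPy 1.17.1). Reads carry no molecular identifiers. No cause of a difference was tested.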

Additional observations from a re-analysis of the deposited data

How the results depend on the processing

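For AGO2 against mouse total RNA, the members called higher ranged from 1 to 5 and those called lower from 0 to 4 when single libraries were left out, and DESeq2 called 1 lower. The call of miR-376a-3p held in all 9 alternatives. Lower filters let 49 and 79 members into the test, of which 2 were called higher and 0 lower in each. Of all 1112 lines under the first, 36 were called higher and 38 lower. Of all 1750 lines under the second, 29 were called higher and 34 lower. For bovine against mouse, leaving out single libraries gave 8 to 21 members higher and 2 to 4 lower, the lowest counts coming without bovine library 1 or 2. The filter of 100 RPM, which left 6 members, gave 5 higher and 0 lower, where 42 and 48 of all 160 pairs were called. Matching by name alone gave 15 higher and 2 lower of 27 members, where 72 and 74 of all 240 pairs were called. The cause was not tested. Signs turned for members that were called in neither setting. In AGO2 these were miR-127-3p (0.31 without library 1, range without single libraries -5.86 to 0.31), miR-154-5p (0.0062 without library 1, range -0.93 to 0.0062) and miR-300-3p (-1.58 without library 2, range -1.58 to 1.90). In bovine, miR-127-5p was at 0.026 with DESeq2 and with its size factors, at 0.43 with library sums and at 0.050 with no filter (range without single libraries -0.44 to 0.0020). miR-136-3p was at 0.21 with DESeq2 and with its size factors, 0.64 with library sums, 0.22 with the 100 RPM filter, 0.29 with no filter, 0.074 with names alone and 0.14 with other prefixes (range without single libraries -0.24 to 0.63). miR-410-3p, which is not named singly, was at -0.07 without mouse library 2. At least 10 RPM in at least 1 library, in place of the mean, was reached by 20 members in AGO2. With at least 100 counts per hairpin, 4 of 11 mouse hairpins had most counts on the 3p arm in both libraries, and 1 of 7 AGO2 hairpins changed its major arm between libraries. Single libraries gave 458 to 692 RPM for the sum in mouse, 828 to 1592 in AGO2 and 1799 to 2212 in bovine, and 13 to 16, 14 to 15 and 25 to 26 members with at least 10 RPM. No paired analysis was possible because the labels do not tie an AGO2 library to a total RNA library. In AGO2 library 1, 49 members had no count and could lie anywhere below its limit of 3 counts.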

Other observations

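Lines of the cluster under other species prefixes were left out by the rule. The bovine lists held 22 such lines, 20 of them with counts, which summed to 329 and 277 RPM. miR-376c-3p under its human name had 233 and 158 RPM. miR-493-5p under its human name had 43.6 and 65.8 RPM and miR-379-3p 16.9 and 15.7 RPM. With lines under other prefixes added to the matching, 40 members were tested, of which 24 were called higher and 5 lower in bovine, where 100 and 98 of all 322 pairs were.

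Other miRNA of the domain that the rule does not name were scarce. In mouse total RNA 3 of 5 listed lines had counts, with sums of 2.26 and 0.953 RPM. In AGO2 4 of 5 had counts, led by miR-1247-5p at 0 and 3.57 RPM. In bovine all 3 had counts, with sums of 6.38 and 7.54 RPM. None reached a mean of 10 RPM in any group.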
